A study of Mus musculus with 9 samples.

Results

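Iron and heme handling was examined through 10 genes of the 50559 listed in a count table of sorted muscle myeloid cells. The genes were chosen by name for their roles: the heme-degrading enzyme Hmox1, the biliverdin reductases Blvra and Blvrb, the ferritin chains Fth1 and Ftl1, the iron exporter Slc40a1, the transferrin receptor Tfrc, the iron transporters Slc11a1 and Slc11a2, and the transcription factor gene Nfe2l2. Earlier results of these data were known when the choice was made, so shares of these genes set beside shares of all genes are descriptions. RNA was sequenced from CD45+CD11b+ cells sorted from the quadriceps of 4.5-week-old mdx mice, a strain that lacks dystrophin. Mice had received vehicle, the mineralocorticoid receptor antagonist spironolactone, or the glucocorticoid prednisolone for 7 days, and there were 3 libraries in each group. Each library came from cells pooled from 3 pairs of quadriceps, and mice of both sexes entered each group. All groups carried the dystrophin defect, and no group of healthy muscle was sequenced here.

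Macrophages in injured muscle take up dying fibers and red blood cells and so meet large amounts of heme and iron. Heme oxygenase opens the heme ring and releases iron, carbon monoxide, and biliverdin, which the biliverdin reductases turn into bilirubin. The released iron is stored in ferritin, a shell built of heavy and light chains, or leaves the cell through ferroportin, the product of Slc40a1. Iron regulatory proteins bind a hairpin, the iron-responsive element, in the messenger RNA of several of these genes when iron is low. A hairpin at the start of the message then holds back translation, and hairpins near its end protect the message from decay. NRF2, the product of Nfe2l2, activates Hmox1, both ferritin genes, and many antioxidant genes, and the repressor BACH1 opposes it until heme binds to it.

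The hairpin sequences found in the members are shown because ferritin and ferroportin are known to be controlled through them at translation, which RNA levels do not measure. GENCODE transcripts on GRCm39 were searched on the sense strand for C, then 5 bases, then CAGTG followed by A, C, or T, then 5 bases able to pair with the first 5, counting G-U pairs. Of 10 members, 4 held at least 1 match, against 262 of 21623 protein-coding genes searched (1.21%). The pattern is that of the known element and the members were picked as iron genes, so these counts are no test. Member sites also had to hold all 30 printed bases, which was not asked for the count of 262. Capitals mark the 6 bases of the loop, and each line is written 5′ to 3′.
Fth1, 5′ UTR, chr19:9960096-9960125, + strand: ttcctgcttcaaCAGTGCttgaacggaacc
Ftl1, 5′ UTR, chr7:45109202-45109231, - strand: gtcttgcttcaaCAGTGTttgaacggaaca
Slc40a1, 5′ UTR, chr1:45964624-45964653, - strand: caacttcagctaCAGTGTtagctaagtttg
Tfrc, 3′ UTR, chr16:32450037-32450066, + strand: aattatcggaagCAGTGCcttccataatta
Tfrc, 3′ UTR, chr16:32450416-32450445, + strand: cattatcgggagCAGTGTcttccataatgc
Tfrc, 3′ UTR, chr16:32450481-32450510, + strand: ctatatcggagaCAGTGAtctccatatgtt
Tfrc, 3′ UTR, chr16:32450528-32450557, + strand: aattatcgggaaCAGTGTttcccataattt
The ferritin and ferroportin hairpins lay in the 5′ UTR, and all 4 matches in Tfrc lay in the 3′ UTR. A match is a description of the sequence, and no match in the other 6 members says only that these letters were not found in these transcripts.

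Library depth was even, at 31469815 to 32943512 counts on genes. All 10 members passed the filter on low counts that left 16618 genes for testing. The sorting antigens were present in every library, with Ptprc (CD45) at 545 to 660 CPM (counts scaled to library size) and Itgam (CD11b) at 978 to 1486 CPM, and summed macrophage markers were at 18848 to 21561 CPM. Markers of other cells differed among libraries. The sum of 10 neutrophil markers was 4653 CPM in vehicle 3 and 3496 CPM in spironolactone 3, and 677 to 1472 CPM in the other 7 libraries. These cells are a mixture, so fewer cells of a type and less RNA per cell cannot be told apart in any result given here. The labels do not tie mice to replicate numbers, and p-values measure the spread between pools.

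Ferritin dominated this group of genes. On the TPM scale, which divides counts by gene length and so allows genes to be compared, mean levels in vehicle-treated cells were 31878 ± 2320 for Ftl1 and 5667 ± 64.4 for Fth1 (SD, n = 3 in each group here and throughout). Hmox1 followed at 884 ± 37.4 TPM, ahead of Slc11a1, a transporter of the phagosome membrane, at 525 ± 57.9 TPM and Nfe2l2 at 251 ± 17.8 TPM. Blvrb stood at 120 ± 9.68 TPM and Blvra at 70.4 ± 1.22 TPM. Tfrc, which brings in transferrin-bound iron, was at 21.2 ± 2.19 TPM, Slc11a2, which carries iron out of endosomes, at 13.1 ± 2.50 TPM, and Slc40a1 at 4.24 ± 2.05 TPM. Over the 9 libraries only Tfrc (14.8 to 24.4 TPM) and Slc11a2 (10.9 to 16.2 TPM) overlapped among neighbors in this order. The order of that pair depended on the length used: with the length of the canonical transcript, a scaling chosen after the data were seen, Slc11a2 was at 27.4 ± 5.32 TPM and Tfrc at 17.5 ± 1.87 TPM in vehicle-treated cells. With that length Fth1 was at 12291 ± 98.4 TPM and Ftl1 at 25256 ± 1924 TPM, so the gap between the chains was smaller.

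**Figure D1:**
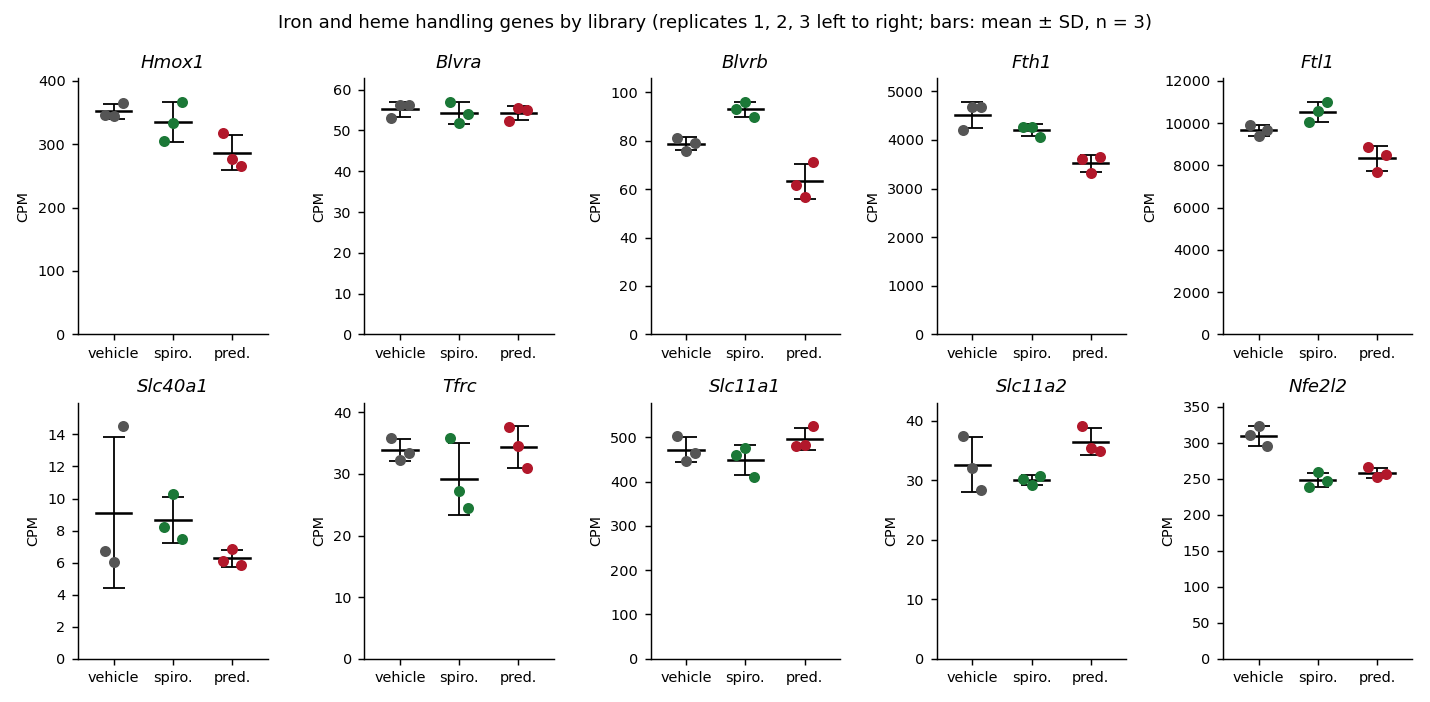
Level of each of the 10 genes in each of the 9 libraries, in CPM with TMM scaling. Points are libraries (replicates 1 to 3 from left to right), bars are the group mean ± SD, each axis starts at 0, and spiro. and pred. stand for spironolactone and prednisolone; Blvrb is lowest in the prednisolone libraries and highest in the spironolactone libraries with no overlap, and Blvra lies between 51.7 and 57.0 CPM throughout.

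The question of the design was how each drug differed from vehicle and how the drugs differed from each other. Blvrb was the only member past the adjusted threshold of 0.05 in edgeR, and only between the drugs, where it was 1.47 times as high with spironolactone as with prednisolone. Hmox1, Fth1, Ftl1, Blvrb, and Nfe2l2 were lower in every prednisolone library than in any vehicle library, with fitted folds of 0.780 to 0.864, but none of these differences passed adjustment in edgeR, while DESeq2 called Fth1 and Nfe2l2. Nfe2l2 was also lower in every spironolactone library than in any vehicle library. Blvra was level in all groups.

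In prednisolone against vehicle, 0 of 10 members were past the threshold, where 1.76% of all genes tested were. At an unadjusted p under 0.05 there were 5 of 10, all lower, against 14.2% of all genes. The groups did not overlap for 5 of 10, against 19.7% of all genes. DESeq2 called 2 of 10 (4.64% of all genes), Fth1 at an adjusted p of 0.00206 and Nfe2l2 at 0.0420, and limma-voom called 0 (1.58%). The median log2 fold change of the members was -0.24, and that of all genes tested was -0.014.

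In spironolactone against vehicle, 0 of 10 members were past the threshold, where 0.0181% of all genes tested were. At an unadjusted p under 0.05 there were 2 of 10, Blvrb higher and Nfe2l2 lower, against 9.29% of all genes. The groups did not overlap for 3 of 10, against 13.5%. DESeq2 called 1 of 10 (1.67% of all genes), Nfe2l2 at an adjusted p of 0.0120, and limma-voom called 0 (0% of all genes). The median log2 fold change was -0.07, against 0.00 for all genes tested. Both drug comparisons use the same vehicle libraries, so they are not independent of each other.

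In spironolactone against prednisolone, 1 of 10 members was past the threshold, where 5.17% of all genes tested were. At an unadjusted p under 0.05 there were 5 of 10, against 22.5% of all genes, and the groups did not overlap for 6 of 10, against 30.3%. Without spironolactone 2 the members at that p were 2 of 10, against 3333 of 17124 genes. DESeq2 called 3 of 10 (10% of all genes), Blvrb, Ftl1, and Fth1, and limma-voom called 2 (4.95%), Blvrb and Ftl1. The median log2 fold change was 0.11, against 0.03 for all genes tested.

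**Figure D2:**
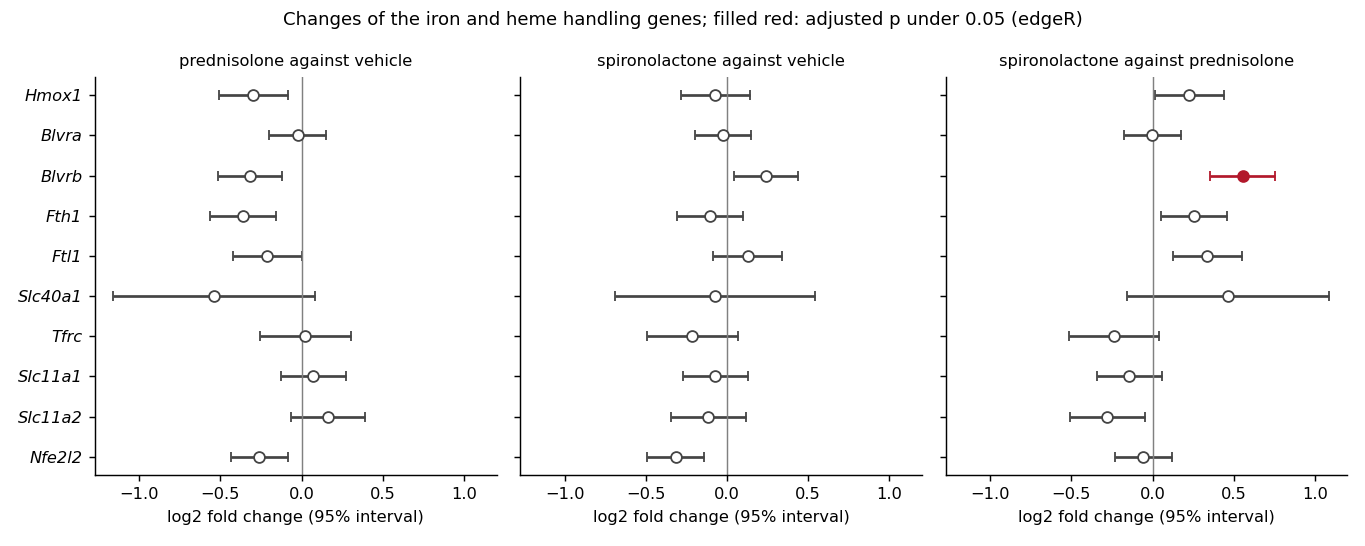
Log2 fold change (x axis) of each of the 10 genes (y axis) in the 3 comparisons, with 95% intervals from the edgeR fit. The filled point is the 1 value past the adjusted threshold, Blvrb between spironolactone and prednisolone at 0.56; the interval of Slc40a1 is the widest and that of Blvra lies around 0 in each panel.

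Heme breakdown begins with Hmox1, the inducible heme oxygenase. Its level was 346, 345, and 365 CPM in the vehicle libraries, 305, 333, and 367 CPM with spironolactone, and 317, 277, and 265 CPM with prednisolone. The prednisolone libraries lay below all vehicle libraries, and the spironolactone libraries spanned them. The log2 fold change with prednisolone was -0.30 ± 0.099 (SE, edgeR adjusted p = 0.170), that with spironolactone -0.07 ± 0.099 (adjusted p = 0.888), and that between the drugs 0.22 ± 0.099 (adjusted p = 0.196). Beside this, the summed neutrophil markers were 677 to 887 CPM with prednisolone, 695 to 4653 CPM with vehicle, and 1290 to 3496 CPM with spironolactone, with a correlation of 0.65 between their log2 sum and Hmox1 over the 9 libraries. The sum of resident-like macrophage markers was 1243 to 1360 CPM with prednisolone and 993 to 1154 CPM in the other libraries, with a correlation of -0.66. That sum rose mostly through 1 gene, F13a1, as given beside Blvrb. The sum of red cell (erythroid) markers had means of 101 CPM with vehicle, 229 CPM with spironolactone, and 60.4 CPM with prednisolone, with a correlation of 0.61. The part of these cells in the Hmox1 difference was not tested. Without vehicle 3 and spironolactone 3, left out together after the data were seen, the prednisolone value of Hmox1 was -0.27 on the log2 scale (edgeR adjusted p = 0.365). The value between the drugs was then 0.15 (edgeR adjusted p = 0.538).

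Blvrb encodes biliverdin reductase B, a flavin and biliverdin reductase abundant in red cells and present in many tissues. It was at 81.3, 75.7, and 79.2 CPM in the vehicle libraries, 93.2, 95.9, and 89.6 CPM with spironolactone, and 61.8, 56.7, and 71.0 CPM with prednisolone. The 3 groups did not overlap: all spironolactone libraries were above, and all prednisolone libraries below, the vehicle range. Between spironolactone and prednisolone the log2 fold change was 0.56 ± 0.093 (edgeR adjusted p = 0.00532), with a 95% interval from 0.36 to 0.75. This call held in all 13 alternative fits and without any 1 of the 9 libraries, with adjusted p from 3.3e-05 to 0.0404. Against vehicle, spironolactone gave 0.24 ± 0.092 (edgeR adjusted p = 0.433), and prednisolone gave -0.32 ± 0.092 (adjusted p = 0.111), so neither drug passed on its own.

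Red cell transcripts moved in the same order as Blvrb. The sum of 10 erythroid markers was 188 to 306 CPM with spironolactone, 70.3 to 136 CPM with vehicle, and 37.3 to 79.7 CPM with prednisolone, nearly all of it hemoglobin chains. Slc4a1, Ahsp, Epb42, and Klf1, which mark red cell precursors, were at 0 to 0.696 CPM in all libraries. Within groups the orders were mixed. Vehicle 2 had the lowest erythroid sum of its group, at 70.3 CPM, and the lowest Blvrb, at 75.7 CPM. In spironolactone 3 the erythroid sum was highest in its group, at 306 CPM, and Blvrb lowest, at 89.6 CPM. In prednisolone 3 the sum was lowest, at 37.3 CPM, and Blvrb highest, at 71.0 CPM. The sum of 12 lymphocyte markers, at 29.98 to 32.9 CPM with vehicle, 41.4 to 50.5 CPM with spironolactone, and 18.9 to 28.8 CPM with prednisolone, was ordered like Blvrb too. Cd4, which myeloid cells can also express, made up the largest share of that sum, at a mean of 17.6 of 31.1 CPM with vehicle and 25.6 of 47.0 CPM with spironolactone, and Klrb1c went against the order, at 2.21 CPM with vehicle and 3.42 CPM with prednisolone. The sum of 8 resident-like macrophage markers was 1243 to 1360 CPM with prednisolone and 993 to 1154 CPM in the other libraries. Mean levels with vehicle and with prednisolone were 512 and 717 CPM for F13a1, the most abundant of them, 11.5 and 31.1 CPM for Lyve1, 6.51 and 13.8 CPM for Timd4, 14.4 and 26.2 CPM for Cd163, and 106 and 125 CPM for Cbr2. They were 90.9 and 62.1 CPM for Gas6, 185 and 157 CPM for Igf1, and 157 CPM in both groups for Folr2. The sum itself had means of 1084 CPM with vehicle and 1290 CPM with prednisolone, so its rise lay mostly in F13a1. Correlations with this sum are therefore largely correlations with F13a1. Over the 9 libraries the log2 sums had correlations with Blvrb of 0.73 for erythroid, 0.97 for lymphocyte, and -0.81 for resident-like macrophage markers. What the cells behind these markers contribute to the Blvrb difference was not tested. Without vehicle 3 and spironolactone 3 the difference between the drugs was 0.57 on the log2 scale (edgeR adjusted p = 0.0279).

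**Figure D3:**
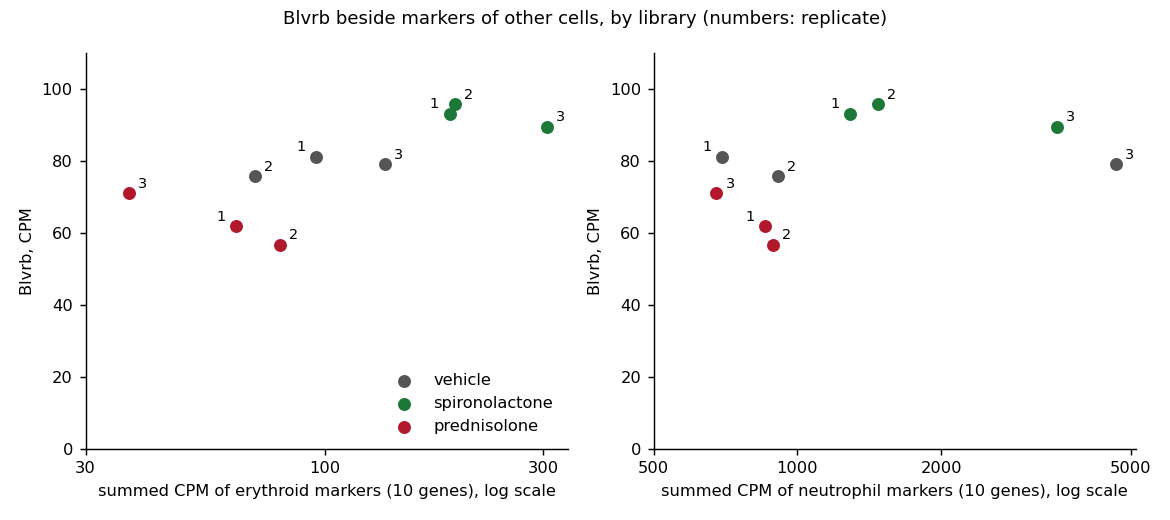
Blvrb (y axis, CPM, from 0) against the summed CPM of 10 erythroid markers (left, log axis) and 10 neutrophil markers (right, log axis) in the 9 libraries, numbered by replicate. Across groups Blvrb is higher where erythroid markers are higher, while within the prednisolone group the library with the lowest erythroid sum (37.3 CPM) has the highest Blvrb (71.0 CPM).

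Blvra encodes biliverdin reductase A, the main enzyme making bilirubin. It was at 53.1, 56.3, and 56.2 CPM with vehicle, 57.0, 51.7, and 53.9 CPM with spironolactone, and 52.3, 55.4, and 55.0 CPM with prednisolone, and all groups overlapped. It varied least of the 10 members, with an SD of 0.050 on the log2 scale over the 9 libraries. The log2 fold changes lay between -0.03 and 0.00 (edgeR adjusted p from 0.929 to 0.997), and the 95% interval of the difference between the drugs ran from -0.17 to 0.17. The count ratio of Blvrb to Blvra in each library therefore followed Blvrb, at 1.43 ± 0.095 with vehicle, 1.72 ± 0.12 with spironolactone, and 1.17 ± 0.13 with prednisolone.

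Iron storage was represented by the ferritin chains, whose messages carry the hairpins printed above. Fth1, the heavy chain that oxidizes iron on entry, was at 4212, 4674, and 4673 CPM with vehicle, 4271, 4266, and 4061 CPM with spironolactone, and 3599, 3323, and 3650 CPM with prednisolone. The prednisolone libraries were the lowest 3 of the 9, and spironolactone overlapped vehicle. The log2 fold change with prednisolone was -0.36 ± 0.095 (edgeR adjusted p = 0.0762). Spironolactone gave -0.11 ± 0.094 (adjusted p = 0.796), and the drugs differed by 0.25 ± 0.094 (adjusted p = 0.130). Without vehicle 1 the prednisolone difference in Fth1 was -0.41 and past the threshold (edgeR adjusted p = 0.0236), and over the other leave-one-out fits it was not called. The same 3 prednisolone libraries had the highest sums of resident-like macrophage markers, given beside Blvrb, with a correlation of -0.74 between the log2 sum and Fth1 over the 9 libraries, and low neutrophil sums, given beside Hmox1. The part of these cells in the Fth1 difference was not tested.

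Ftl1, the light chain that supports the iron core, was at 9893, 9399, and 9685 CPM with vehicle, 10061, 10559, and 11011 CPM with spironolactone, and 8854, 7702, and 8475 CPM with prednisolone. As for Blvrb, the 3 groups did not overlap. Between spironolactone and prednisolone the log2 fold change was 0.34 ± 0.098 (edgeR adjusted p = 0.0639). Against vehicle, spironolactone gave 0.13 ± 0.098 (adjusted p = 0.750), while prednisolone gave -0.21 ± 0.098 (adjusted p = 0.352). The erythroid and lymphocyte sums given beside Blvrb were highest with spironolactone and lowest in mean with prednisolone, like Ftl1, with correlations of 0.80 and 0.90 between their log2 sums and Ftl1 over the 9 libraries, and -0.77 for the resident-like macrophage sum. Their part in the Ftl1 difference was not tested. The difference between the drugs was past the threshold in 4 of 13 alternative fits and, without vehicle 1, in 1 of 9 leave-one-out fits.

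In mean, the heavy chain was lower relative to the light chain with each drug than with vehicle, and lowest with spironolactone. The TPM ratio of Fth1 to Ftl1 was 0.162, 0.189, and 0.184 with vehicle, 0.162, 0.154, and 0.141 with spironolactone, and 0.155, 0.164, and 0.164 with prednisolone. The spironolactone ratios lay below the vehicle ratios, though the highest of them and the lowest vehicle ratio differed only in the next digit, and prednisolone overlapped both groups. No test of the ratio was made. The ratio depends on the length used, and with the canonical transcript it was 0.489 ± 0.039, 0.416 ± 0.029, and 0.441 ± 0.015. Processed copies of both genes exist: the 3 copies of Ftl1 listed in the table held counts equal to at most 3.26% of those of Ftl1, and the 3 copies of Fth1 at most 0.054%.

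Iron leaves the cell through ferroportin. Slc40a1 was at 6.75, 6.05, and 14.5 CPM with vehicle, 8.23, 10.3, and 7.47 CPM with spironolactone, and 6.07, 6.88, and 5.85 CPM with prednisolone. Vehicle 3 stood apart and was the highest of the 9 libraries, and the prednisolone libraries were below all spironolactone libraries. No comparison was past the threshold, with log2 fold changes of -0.54 ± 0.29 with prednisolone (edgeR adjusted p = 0.434), -0.07 ± 0.28 with spironolactone (adjusted p = 0.968), and 0.47 ± 0.29 between the drugs (adjusted p = 0.366). The values against vehicle rested on vehicle 3. Without it the prednisolone value was -0.03 and the spironolactone value turned to 0.43 (edgeR adjusted p = 0.562). Vehicle 3 was also the library with the highest sum of neutrophil markers, and their part in this level was not tested. The fewest counts behind a Slc40a1 value were 194, for which counting error is 7.18%, against a within-group spread of 29.3%.

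Iron uptake and transport inside the cell were measured with Tfrc, Slc11a1, and Slc11a2. Tfrc, the message with 4 matches in its 3′ UTR, was at 35.8, 32.3, and 33.5 CPM with vehicle, 35.8, 27.2, and 24.5 CPM with spironolactone, and 37.7, 34.5, and 30.9 CPM with prednisolone. Its groups overlapped in every comparison. Its log2 fold change was -0.22 ± 0.13 for spironolactone (edgeR adjusted p = 0.662), 0.02 ± 0.13 for prednisolone (adjusted p = 0.960), and -0.24 ± 0.13 between the drugs (adjusted p = 0.302). Leaving out 1 library, the spironolactone value ranged from -0.39 to -0.11 and that between the drugs from -0.41 to -0.13, none of them called.

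Slc11a1, the phagosomal metal transporter also called NRAMP1, was at 503, 447, and 465 CPM with vehicle, 459, 476, and 410 CPM with spironolactone, and 480, 482, and 525 CPM with prednisolone. Slc11a2, also called DMT1, was at 37.5, 32.0, and 28.4 CPM with vehicle, 30.3, 29.2, and 30.8 CPM with spironolactone, and 39.1, 35.4, and 35.0 CPM with prednisolone. For each transporter all spironolactone libraries lay below all prednisolone libraries, and both drugs overlapped vehicle. Between the drugs the log2 fold change was -0.14 ± 0.093 for Slc11a1 (edgeR adjusted p = 0.387) and -0.28 ± 0.11 for Slc11a2 (adjusted p = 0.141). Against vehicle, Slc11a1 had values of -0.07 with spironolactone and 0.07 with prednisolone, and Slc11a2 of -0.12 and 0.16, with adjusted p from 0.546 to 0.878 in edgeR.

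Nfe2l2, the gene of the regulator, was at 310, 323, and 296 CPM with vehicle, 239, 259, and 248 CPM with spironolactone, and 266, 253, and 256 CPM with prednisolone. All 6 drug libraries lay below all 3 vehicle libraries, and the drugs overlapped each other. Taking each drug alone, 9.27% of all genes tested were lower without overlap with prednisolone, and 6.50% with spironolactone. Spironolactone gave a log2 fold change of -0.32 ± 0.083 (edgeR adjusted p = 0.174), and prednisolone one of -0.26 ± 0.083 (adjusted p = 0.144). Between the drugs it was -0.06 ± 0.083, with a 95% interval from -0.23 to 0.12. Summed skeletal muscle markers were at 253 to 367 CPM with vehicle, 443 to 728 CPM with spironolactone, and 361 to 549 CPM with prednisolone. Summed endothelial markers were at 110 to 154 CPM with vehicle, 202 to 284 CPM with spironolactone, and 147 to 175 CPM with prednisolone. Summed fibro-adipogenic markers were at 635 to 902, 836 to 1218, and 799 to 894 CPM in the same order. Over the 9 libraries the log2 sums had correlations with Nfe2l2 of -0.75 for muscle, -0.70 for endothelial, and -0.60 for fibro-adipogenic markers. The sort was on CD45 and CD11b, and per the study's methods it did not separate live from dead cells. The part of RNA from these other cells in the Nfe2l2 levels was not tested.

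The members did not move as one block. Over the 45 pairs the median Pearson correlation of log2 CPM across the 9 libraries was 0.024, near the -0.001 found over pairs of all genes tested. These correlations share libraries, depth, and group differences, and they are given as descriptions. The highest was 0.92 between Ftl1 and Blvrb, which was 0.43 for deviations from group means. Hmox1 went with Ftl1 at 0.76, and this pair kept 0.67 within groups. Hmox1 and Fth1 had 0.74 across libraries but -0.07 within groups, and Fth1 and Ftl1 had 0.69 across libraries and 0.12 within groups. The lowest was -0.77 between Slc40a1 and Slc11a2, at -0.71 within groups. Nfe2l2 had 0.02 with Ftl1, 0.48 with Hmox1, and 0.55 with Fth1.

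**Figure D4:**
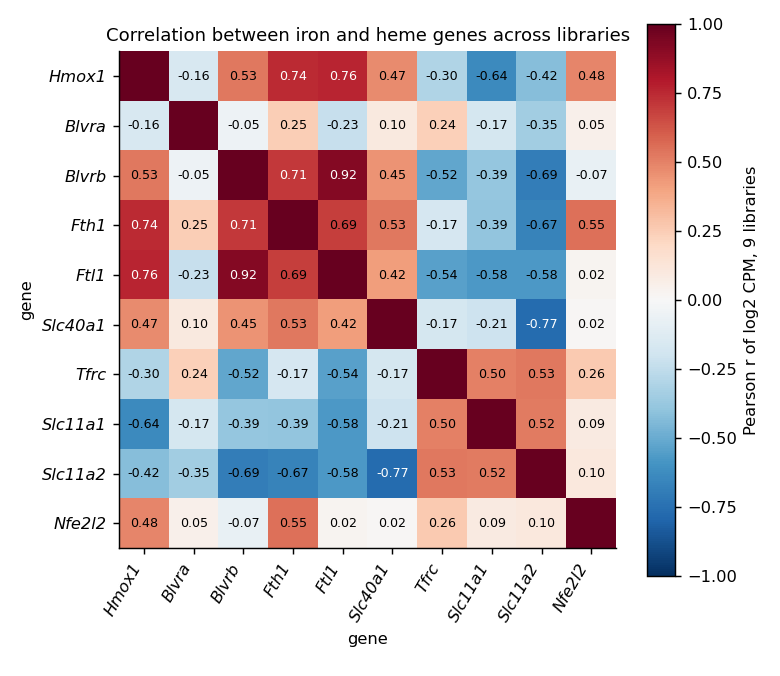
Pearson correlation of log2 CPM between the 10 genes over the 9 libraries, as color and number, with genes on both axes. Hmox1, Blvrb, Fth1, and Ftl1 form a block with values of 0.53 to 0.92, and Slc11a2 is negative with each of them; within groups Hmox1 and Blvrb have -0.33, and Slc11a2 has 0.14 with Hmox1 and 0.37 with Ftl1.

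The genes most like Hmox1 in pattern over the 9 libraries, by Pearson correlation of log2 CPM across all genes tested, were Hspa5 (0.96), Cndp2 (0.96), Tpi1 (0.95), LOC118568010 (0.95), and Junb (0.94). Mean levels of Junb, an immediate early transcription factor gene, were 2622 CPM with vehicle, 2158 CPM with spironolactone, and 1641 CPM with prednisolone. Those of Hspa5, an endoplasmic reticulum chaperone gene, were 1185, 1134, and 990 CPM in the same order. The genes most like Slc40a1 were Sag (0.94), Gm6421 (0.90), Hdac8 (0.89), Oas1b (0.88), and Dennd3 (0.88), all below 12 CPM in mean level in each group.

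Beyond the members, 91 other genes of heme uptake, heme synthesis, iron transport, iron sensing, and the NRF2 pathway were listed, and 81 could be tested. Against vehicle, 0 were past the threshold in edgeR with either drug. At an unadjusted p under 0.05 there were 17 of 81 with prednisolone, against 14.2% of all genes, and 9 of 81 with spironolactone, against 9.29%. DESeq2 called 9 and 3, against 4.64% and 1.67% of all genes, and limma-voom called 0 and 0. Between the drugs 7 of 81 (8.64%) were past the threshold, where 5.17% of all genes tested were, with 2 higher and 5 lower with spironolactone.

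In heme uptake and breakdown, 9 of 11 listed genes were tested. Of their log2 values between the drugs, 3 were above 0 and 6 below. In edgeR, 1 of each sign was past the threshold, where 2.38% of all genes tested were called higher and 2.79% lower. Cd163, the scavenger receptor for hemoglobin bound to haptoglobin and also a marker of resident-like macrophages, was at 19.8, 13.2, and 10.3 CPM with vehicle, 11.5, 17.6, and 12.3 CPM with spironolactone, and 22.4, 29.9, and 26.2 CPM with prednisolone. It was lower with spironolactone than with prednisolone by a log2 value of -0.92 ± 0.23 (edgeR adjusted p = 0.0448). Hmox2, the constitutive heme oxygenase, was at 73.9, 82.6, and 80.3 CPM with vehicle, 76.2, 84.7, and 81.0 CPM with spironolactone, and 64.3, 61.7, and 66.3 CPM with prednisolone. It was higher with spironolactone than with prednisolone by 0.33 ± 0.083 (edgeR adjusted p = 0.0367). Lrp1, the receptor for heme bound to hemopexin, had a log2 value of -0.45 between the drugs (edgeR adjusted p = 0.144). Slc48a1, which carries heme out of the lysosome, had -0.03 (adjusted p = 0.888). The heme exporter Flvcr1 had -0.12 (adjusted p = 0.427), and the transporter Abcb6 had -0.31 (adjusted p = 0.223).

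In heme synthesis, 11 of 11 genes were tested. Only Alas2 was past the threshold in edgeR, between the drugs, where 5.17% of all genes tested were. At an unadjusted p under 0.05 there were 5 of 11, against 22.5% of all genes, with 3 higher and 2 lower with spironolactone. Alas2, the erythroid form of the first enzyme, was at 1.22 to 2.71 CPM with vehicle, 3.79 to 5.25 CPM with spironolactone, and 0.356 to 1.80 CPM with prednisolone, a log2 difference between the drugs of 2.04 ± 0.46 (edgeR adjusted p = 0.0259). It is itself among the erythroid markers that were highest with spironolactone. Alas1, the form used by most tissues, was at 142 ± 9.6 CPM with spironolactone and 184 ± 13.6 CPM with prednisolone and did not pass (-0.37 ± 0.11, edgeR adjusted p = 0.0736). Ppox, of the last steps, had a value of 0.30 between the drugs (edgeR adjusted p = 0.120), and Slc25a38, a mitochondrial glycine carrier, had 0.31 (adjusted p = 0.102).

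In iron transport and storage outside the members, 17 of 23 genes were tested. In edgeR 1 was past the threshold, between the drugs, where 5.17% of all genes tested were. Against vehicle, DESeq2 on all 9 libraries called Slc39a14 and the neutrophil granule gene Ltf with prednisolone, and Hjv with spironolactone. Slc39a14, an importer of zinc and of iron not bound to transferrin, was at 30.5, 52.1, and 42.4 CPM with vehicle, 29.0, 41.6, and 34.3 CPM with spironolactone, and 72.5, 55.8, and 62.1 CPM with prednisolone. It was lower with spironolactone than with prednisolone by -0.86 ± 0.19 (edgeR adjusted p = 0.0287). Its relative Slc39a8 had -0.46 ± 0.19 (adjusted p = 0.166). Ncoa4, which delivers ferritin to the lysosome for iron release, was at 101, 87.9, and 86.7 CPM with vehicle, 90.8, 86.7, and 90.1 CPM with spironolactone, and 73.2, 77.3, and 75.6 CPM with prednisolone. As for Fth1, its prednisolone libraries were the lowest 3, with a log2 fold change of -0.29 ± 0.085 against vehicle (edgeR adjusted p = 0.118). Hjv, a coreceptor known from muscle and liver, had 1.25 ± 0.34 between the drugs at 2.54 and 6.04 CPM (edgeR adjusted p = 0.0530), and the copper-dependent ferroxidase gene Cp had 0.24 ± 0.18 (adjusted p = 0.473).

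In iron sensing and iron-sulfur cluster assembly, 14 of 14 genes were tested and 0 were past the threshold in edgeR, with 3 at an unadjusted p under 0.05 between the drugs, where 22.5% of all genes were. Fbxl5, the iron-sensing part of the ligase that removes an iron regulatory protein, had log2 values of -0.35 ± 0.17 with spironolactone and -0.08 ± 0.17 with prednisolone. Iscu, the cluster scaffold, had 0.25 between the drugs (edgeR adjusted p = 0.133), Hscb, its cochaperone, 0.37 (adjusted p = 0.126), and Glrx5 0.19 (adjusted p = 0.364).

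Among partners and regulators of NRF2, 11 of 12 genes were tested and 0 were past the threshold in edgeR. The small Maf proteins pair with NRF2 or BACH1 on DNA. Mafk was at 56.0, 58.6, and 63.8 CPM with vehicle, 55.9, 45.5, and 41.0 CPM with spironolactone, and 48.9, 36.3, and 38.6 CPM with prednisolone. Maff was at 24.5, 30.6, and 34.4 CPM with vehicle, 16.2, 22.8, and 16.8 CPM with spironolactone, and 23.4, 17.1, and 12.7 CPM with prednisolone. For both genes, as for Nfe2l2, all drug libraries lay below all vehicle libraries. For Mafk this rested on 55.91 CPM in spironolactone 1 against 56.04 CPM in vehicle 1. Sqstm1, also on this list, had the same pattern. With prednisolone 9.27% of all genes tested lay below vehicle without overlap, and with spironolactone 6.50%. The share for both drugs together was not computed. The log2 fold changes were -0.53 ± 0.13 for Mafk (edgeR adjusted p = 0.0624) and -0.75 ± 0.21 for Maff (adjusted p = 0.116) with prednisolone, and -0.32 ± 0.13 (adjusted p = 0.459) and -0.68 ± 0.21 (adjusted p = 0.306) with spironolactone. DESeq2 on all 9 libraries called Mafk and Maff with prednisolone and Maff with spironolactone. Fits with a replicate block or an Xist covariate called Mafk with prednisolone. Keap1, the sensor that marks NRF2 for degradation, had 0.14 with spironolactone and -0.08 with prednisolone, and Cul3, its ligase partner, had -0.21 and 0.01, with adjusted p from 0.451 to 0.967 in edgeR.

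Among NRF2 target genes outside iron and heme handling, 19 of 20 were tested, and 3 were lower with spironolactone than with prednisolone, where 2.79% of all genes tested were called lower. Abcc1, an exporter of glutathione conjugates, was at 112, 98.6, and 109 CPM with vehicle, 88.4, 93.6, and 78.8 CPM with spironolactone, and 147, 126, and 132 CPM with prednisolone, a difference between the drugs of -0.63 ± 0.096 (edgeR adjusted p = 0.00331). Its 3 groups did not overlap and were ordered opposite to Blvrb. Srxn1, which restores oxidized peroxiredoxins, was at 38.5, 40.2, and 46.5 CPM with vehicle, 40.8, 29.8, and 36.0 CPM with spironolactone, and 56.2, 57.0, and 56.9 CPM with prednisolone (-0.67 ± 0.11, edgeR adjusted p = 0.00587). Txnrd1, cytosolic thioredoxin reductase, was at 107, 104, and 114 CPM with vehicle, 82.8, 87.1, and 86.8 CPM with spironolactone, and 132, 120, and 107 CPM with prednisolone (-0.48 ± 0.091, edgeR adjusted p = 0.0103). Gclc, of glutathione synthesis, had -0.31 (adjusted p = 0.0999) and Ephx1, an epoxide hydrolase gene, -0.99 (adjusted p = 0.0917). Osgin1, an oxidative stress response gene, had 0.39 (adjusted p = 0.361). Against vehicle the targets went in both directions. DESeq2 on all 9 libraries called Abcc1 and Srxn1 higher and Osgin1 lower with prednisolone, and Txnrd1 lower with spironolactone. In edgeR Osgin1 had -0.85 ± 0.23 with prednisolone against vehicle (adjusted p = 0.115). Over the 19 targets 8 values between the drugs were above 0 and 11 below, with a median of -0.10 against 0.03 for all genes tested. At an unadjusted p under 0.05 there were 6, all lower with spironolactone, where 11.1% of all genes were lower at that p.

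**Figure D5:**
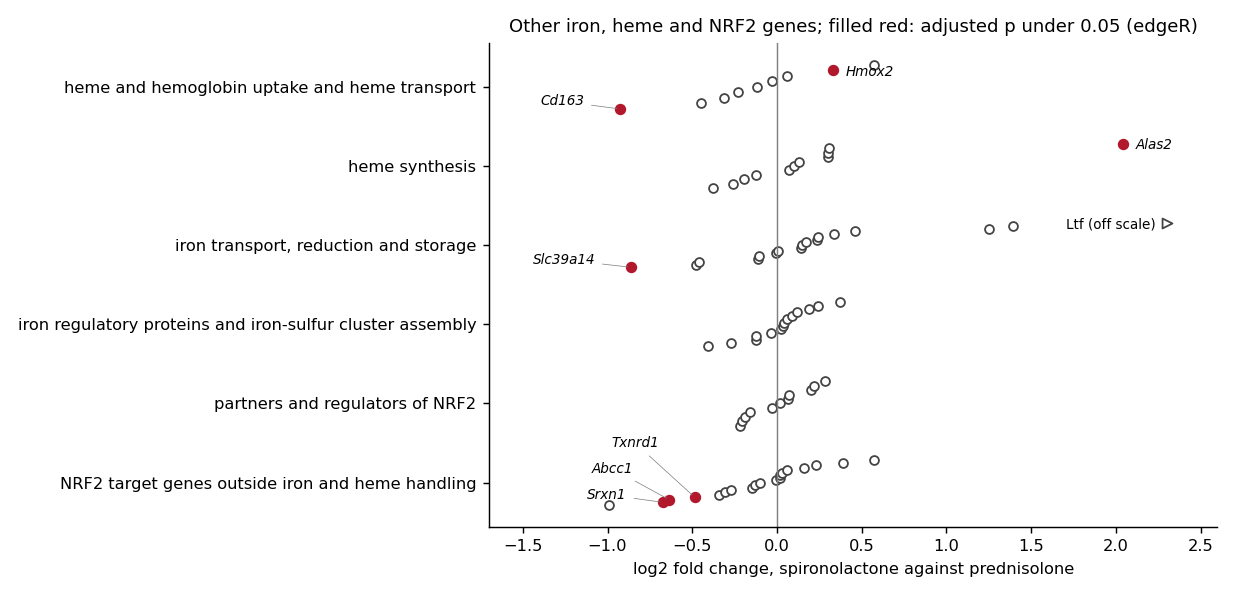
Log2 fold change of spironolactone against prednisolone (x axis) for the other tested genes, by list (y axis), with points spread vertically by rank. Filled points are the 7 genes past the adjusted threshold in edgeR, of which Abcc1, Srxn1, Txnrd1, Cd163, and Slc39a14 are lower with spironolactone and Hmox2 and Alas2 higher; Ltf, a neutrophil granule gene, lies beyond the axis and did not pass.

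Of these 7 genes only Abcc1 and Srxn1 were past the threshold without any 1 of the 9 libraries. Txnrd1 was lost without prednisolone 1. Without vehicle 3 and spironolactone 3 the calls were Abcc1, Srxn1, and Txnrd1, 3 in all. Cd163, Slc39a14, Hmox2, and Alas2 were each lost without spironolactone 3 and without prednisolone 1. Besides these, Alas2 was lost without spironolactone 1, Slc39a14 without spironolactone 1, prednisolone 2, or prednisolone 3, Hmox2 without spironolactone 2, prednisolone 2, or prednisolone 3, and Cd163 without vehicle 2, spironolactone 1, prednisolone 2, or prednisolone 3.

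On GRCm39, Blvrb lies at 27147275 to 27165569 on chromosome 7 (+ strand) and Blvra at 126912556 to 126939017 on chromosome 2 (+). Hmox1 lies at 75820241 to 75827217 on chromosome 8 (+), Nfe2l2 at 75504739 to 75534985 on chromosome 2 (-), Fth1 at 9957911 to 9962462 on chromosome 19 (+), and Ftl1 at 45107367 to 45109308 on chromosome 7 (-). Slc40a1 lies at 45947211 to 45965683 (-) and Slc11a1 at 74414303 to 74425448 (+) on chromosome 1, Tfrc at 32427556 to 32451612 on chromosome 16 (+), and Slc11a2 at 100285776 to 100322953 on chromosome 15 (-). Exons of Slc40a1, Fth1, Ftl1, Slc11a2, Blvra, and Nfe2l2 overlap exons of a gene on the opposite strand (Gm69542, Gm36913, Gm10252, Gm5475, Gm75586, and E030042O20Rik), and those of Ftl1 also overlap Gm56125 on its own strand. The strand setting of the counting is not given in the sources used here, so reads of such pairs cannot be told apart. Hmox1, Tfrc, Slc11a1, and Blvrb have no such overlap in this annotation.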

How the data were processed

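Count values per gene were deposited as whole numbers without normalization. Per the submitters' processing notes and the study's methods, the authors aligned reads to mm39 with HISAT2 2.2.1 and counted them with HTSeq 0.11.3. Lines naming no gene (17.2% to 21.8% of each library) were left out. Tables of the authors' own comparisons (fold changes and p-values, DESeq2 1.32.0) were not used.

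All 9 libraries entered 1 fit of edgeR 4.0.16 (R 4.3.3; TMM, filterByExpr with minimum count 10 and minimum total 15, glmQLFit with robust=TRUE, quasi-likelihood test, two-sided), with Benjamini-Hochberg adjustment over 16618 genes and a threshold of 0.05. DESeq2 1.42.0, limma 3.58.1, other scalings and filters, a replicate block, an Xist covariate, and leaving out libraries were alternatives. The fitting steps were tested on simulated data. CPM are scaled by TMM. For TPM, exon lengths were summed over the GENCODE gene sharing the symbol. Pairs of libraries within a group differed by 19.7 to 63.8 times the sampling variance (chi-square divided by its degrees of freedom), so none was a duplicate.

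The members and lists were chosen with earlier results of these data known. Named were all members, each other listed gene past the threshold, besides these the 2 genes with the next smallest p-values per list and comparison, and the 5 genes most like Hmox1 and Slc40a1. Genes singled out for a limit, such as Ltf, were named after their values were seen. Most other listed genes are given only in counts, and 1 gene named by this rule is not reported here.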

Additional observations from a re-analysis of the deposited data

How the results depend on the processing

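The call of Blvrb between the drugs held in all 13 alternative fits and all 9 leave-one-out fits. Members past the threshold in prednisolone against vehicle were 0, but 2 with DESeq2 on all 9 libraries, 1 with DESeq2 on the 2 groups, and 0 to 1 leaving out 1 library. With spironolactone against vehicle they were 0, but 1 with DESeq2 on all 9 libraries. Between the drugs they were 1, but 3 with either DESeq2 fit, 2 with limma-voom or upper quartile scaling, and 1 to 2 leaving out 1 library. The counts over all genes moved too. With prednisolone 293 genes were past the threshold, and 69 to 826 leaving out 1 library. With spironolactone there were 3, and 0 to 34 leaving out 1 library. Between the drugs there were 859, and 232 to 1898 leaving out 1 library. Members at an unadjusted p under 0.05 were then 3 to 6, 1 to 3, and 2 to 6 in the 3 comparisons. The causes of these differences were not tested.

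Other listed genes past the threshold with prednisolone were 0, but 9 and 8 with the DESeq2 fits, 1 with edgeR on 2 groups, 11 with no low-count filter, 1 with the Xist covariate, and 0 to 6 leaving out 1 library. With spironolactone they were 0, but 3 and 2 with DESeq2 and 5 with no filter. Between the drugs they were 7, but 11 and 13 with DESeq2, 12 with edgeR on 2 groups, 13 with no filter, 4 with the Xist covariate, 3 without vehicle 3 and spironolactone 3 (chosen after seeing the data), and 2 to 12 leaving out 1 library.

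Values near 0 changed sign. Blvra turned to 0.0013 with prednisolone under library totals only, to 0.0033 with spironolactone under upper quartile scaling, and, between the drugs, to 0.021 under upper quartile scaling, 0.0099 with at least 10 counts in every library, and 0.0021 with the Xist covariate. Leaving out 1 library, Blvra ranged from -0.052 to 0.0017, from -0.063 to 0.0065, and from -0.039 to 0.031 in the 3 comparisons, and Tfrc with prednisolone from -0.047 to 0.095. Slc40a1 with spironolactone was 0.032 by limma-voom, 0.014 with the Xist covariate, 0.53 without vehicle 3 and spironolactone 3, and -0.30 to 0.43 leaving out 1 library. Correlation among members, as the median over pairs, ranged from -0.0715 to 0.0867 leaving out 1 library.

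Deviations of same-numbered libraries had correlations of -0.038 to 0.15. Vehicle 3 with spironolactone 3 (0.15) and vehicle 1 with spironolactone 1 (0.12) were the highest of all pairs. The other same-numbered pairs lay at -0.038 to 0.020, and differently numbered pairs reached 0.044. The labels do not tie mice to these numbers, and the numbers were not taken to pair libraries. With the replicate block, members past the threshold were 0, 0, and 1, other listed genes 2, 0, and 9, and all genes 336, 8, and 1082. Depth limited Slc40a1 most, with 194 to 466 counts.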
